A study of Mus musculus with 12 samples.

Results

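The genes described here are 48 mouse orthologs of genes on human chromosome 21, the chromosome that is present in an extra copy in Down syndrome. They form a list of symbols whose rule uses no measured value, and *Hmgn1* itself was left out. Of the 48 symbols, 46 were in the deposited expression table of 23309 genes, and *Cstb2* and *Pfkl2* were not. A further 3 genes (*Adamts1*, *Bace2*, and *Prmt2*) were under the filter of at least 1 FPKM (fragments per length of transcript and per library size, a level that can be compared between genes) in at least 2 libraries, which left 43 members among the 11516 genes tested. The question was whether overexpression of HMGN1 alone moved the other genes of the trisomy 21 set.

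Poly(A) RNA of mouse myeloid progenitors was sequenced 0, 36, and 96 h after estradiol (E2) was withdrawn, in 2 libraries for each genotype and time, 12 in all. Both genotypes derived from CD117-positive bone marrow cells that carried a retrovirus for ER-HoxB8, a fusion protein that keeps progenitors immature while E2 is present, so both were immortalized cultures maturing in IL-3 rather than fresh marrow. HMGN1-OE cells came from transgenic mice that express human HMGN1 on top of the mouse gene, on a C57BL/6 background, and wild-type cells came from littermates without the transgene. Apart from the transgene the labels name no change in gene copies, so the members are taken to be in their usual copies in both genotypes. A fixed number of cells was used per library with synthetic spike-in RNAs and the deposited FPKM values were scaled to these spike-ins, so a lower value can reflect less RNA per cell. Fewer cells of a given type and less RNA of a gene per cell cannot be told apart in such bulk samples.

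HMGN1 is a small protein that binds nucleosomes and keeps chromatin less compact. The orthologs of human chromosome 21 genes lie in mouse mainly on a long stretch of chromosome 16, with the rest on chromosomes 10 and 17. They include genes known for roles in blood, among them *Runx1* and *Ets2* (transcription factors of hematopoiesis), a cluster of interferon and interleukin 10 receptor genes, and *Dyrk1a* and *Rcan1* (regulators of calcineurin and NFAT signalling). In trisomy the extra copy of a gene is known to raise its transcript by about the ratio of copies, which is 1.5-fold, and this size serves below as a yardstick.

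The promoter sequences of 6 members are shown because 2 pairs of them start near each other and because the others hold a motif counted below. In RefSeq *Gart* and *Son* start 852 bases apart on opposite strands, as do *Itsn1* and *Cryzl1* at 569 bases, so each pair shares the DNA between its starts. *Cct8* and *Usp16* carry the ETS-type motif discussed below. Each run is the RefSeq window from 250 bases before to 50 bases after the start of transcription, on the strand of the gene and in build GRCm38.p6. Capitals mark the motif CCGGAAGT in *Gart* (as its complement), *Cct8*, and *Usp16*, the E-box CACGTG in *Usp16*, and TTNNGCAA in *Cryzl1* (as its complement). The windows lie at chr16:91646923-91647222 (minus strand) for *Gart*, chr16:91647574-91647873 (plus strand) for *Son*, chr16:91729121-91729420 (plus strand) for *Itsn1*, chr16:91728753-91729052 (minus strand) for *Cryzl1*, chr16:87495820-87496119 (minus strand) for *Cct8*, and chr16:87454735-87455034 (plus strand) for *Usp16*.
Gart: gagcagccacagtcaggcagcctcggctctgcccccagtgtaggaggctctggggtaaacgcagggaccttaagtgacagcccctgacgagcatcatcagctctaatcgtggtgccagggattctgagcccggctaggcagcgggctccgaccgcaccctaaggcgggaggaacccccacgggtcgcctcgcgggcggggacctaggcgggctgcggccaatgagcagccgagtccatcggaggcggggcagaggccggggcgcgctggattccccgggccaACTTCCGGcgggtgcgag
Son: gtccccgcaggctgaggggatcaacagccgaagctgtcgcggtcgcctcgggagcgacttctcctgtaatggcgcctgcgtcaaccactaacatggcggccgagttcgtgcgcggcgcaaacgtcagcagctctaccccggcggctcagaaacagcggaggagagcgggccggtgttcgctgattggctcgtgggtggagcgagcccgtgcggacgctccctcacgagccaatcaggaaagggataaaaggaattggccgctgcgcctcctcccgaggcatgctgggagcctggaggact
Itsn1: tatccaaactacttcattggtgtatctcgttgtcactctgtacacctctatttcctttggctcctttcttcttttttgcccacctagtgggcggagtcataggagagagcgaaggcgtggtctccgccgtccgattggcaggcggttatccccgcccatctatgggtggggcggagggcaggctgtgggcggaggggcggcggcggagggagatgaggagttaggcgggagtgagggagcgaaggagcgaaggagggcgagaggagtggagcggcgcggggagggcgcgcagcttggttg
Cryzl1: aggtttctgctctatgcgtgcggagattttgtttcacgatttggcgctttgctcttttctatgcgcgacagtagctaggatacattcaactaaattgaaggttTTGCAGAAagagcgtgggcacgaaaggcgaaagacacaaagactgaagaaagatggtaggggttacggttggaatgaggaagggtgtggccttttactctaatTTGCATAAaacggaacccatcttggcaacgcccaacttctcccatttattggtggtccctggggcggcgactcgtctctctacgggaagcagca
Cct8: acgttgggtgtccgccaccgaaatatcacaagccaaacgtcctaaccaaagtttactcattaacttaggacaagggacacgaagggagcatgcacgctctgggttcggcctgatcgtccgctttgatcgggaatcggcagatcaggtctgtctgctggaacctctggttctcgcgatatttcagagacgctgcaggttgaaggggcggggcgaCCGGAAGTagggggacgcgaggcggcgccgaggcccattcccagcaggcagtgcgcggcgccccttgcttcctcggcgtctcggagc
Usp16: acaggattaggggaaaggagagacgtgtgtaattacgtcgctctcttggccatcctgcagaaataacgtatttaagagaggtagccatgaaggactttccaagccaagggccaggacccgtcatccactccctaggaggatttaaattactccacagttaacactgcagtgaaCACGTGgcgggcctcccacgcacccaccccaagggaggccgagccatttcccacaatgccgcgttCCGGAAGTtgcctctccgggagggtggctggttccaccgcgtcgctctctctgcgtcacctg

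Levels per transcript length differed widely between members. *Sod1*, the cytosolic superoxide dismutase, was the most abundant member, at 48.6 to 1179 FPKM over the 12 libraries. *Cct8*, a subunit of the CCT chaperonin, ranged from 17.4 to 633 FPKM, and *U2af1*, a splicing factor that reads the 3′ splice site, ranged from 27.9 to 545 FPKM. At the low end, *App*, the amyloid precursor, stayed at or under 0.314 FPKM at 0 and 36 h, and *Slc5a3*, an inositol transporter, was at or under 0.191 FPKM at 96 h. *Adamts1*, a secreted protease, sat in every library at a low value of 0.0967 to 0.105 FPKM that the table gives to 6202 genes alike. *Bace2*, another protease, was at or under 0.115 FPKM and *Prmt2*, an arginine methyltransferase, at or under 0.663 FPKM in all libraries.

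**Figure D1:**
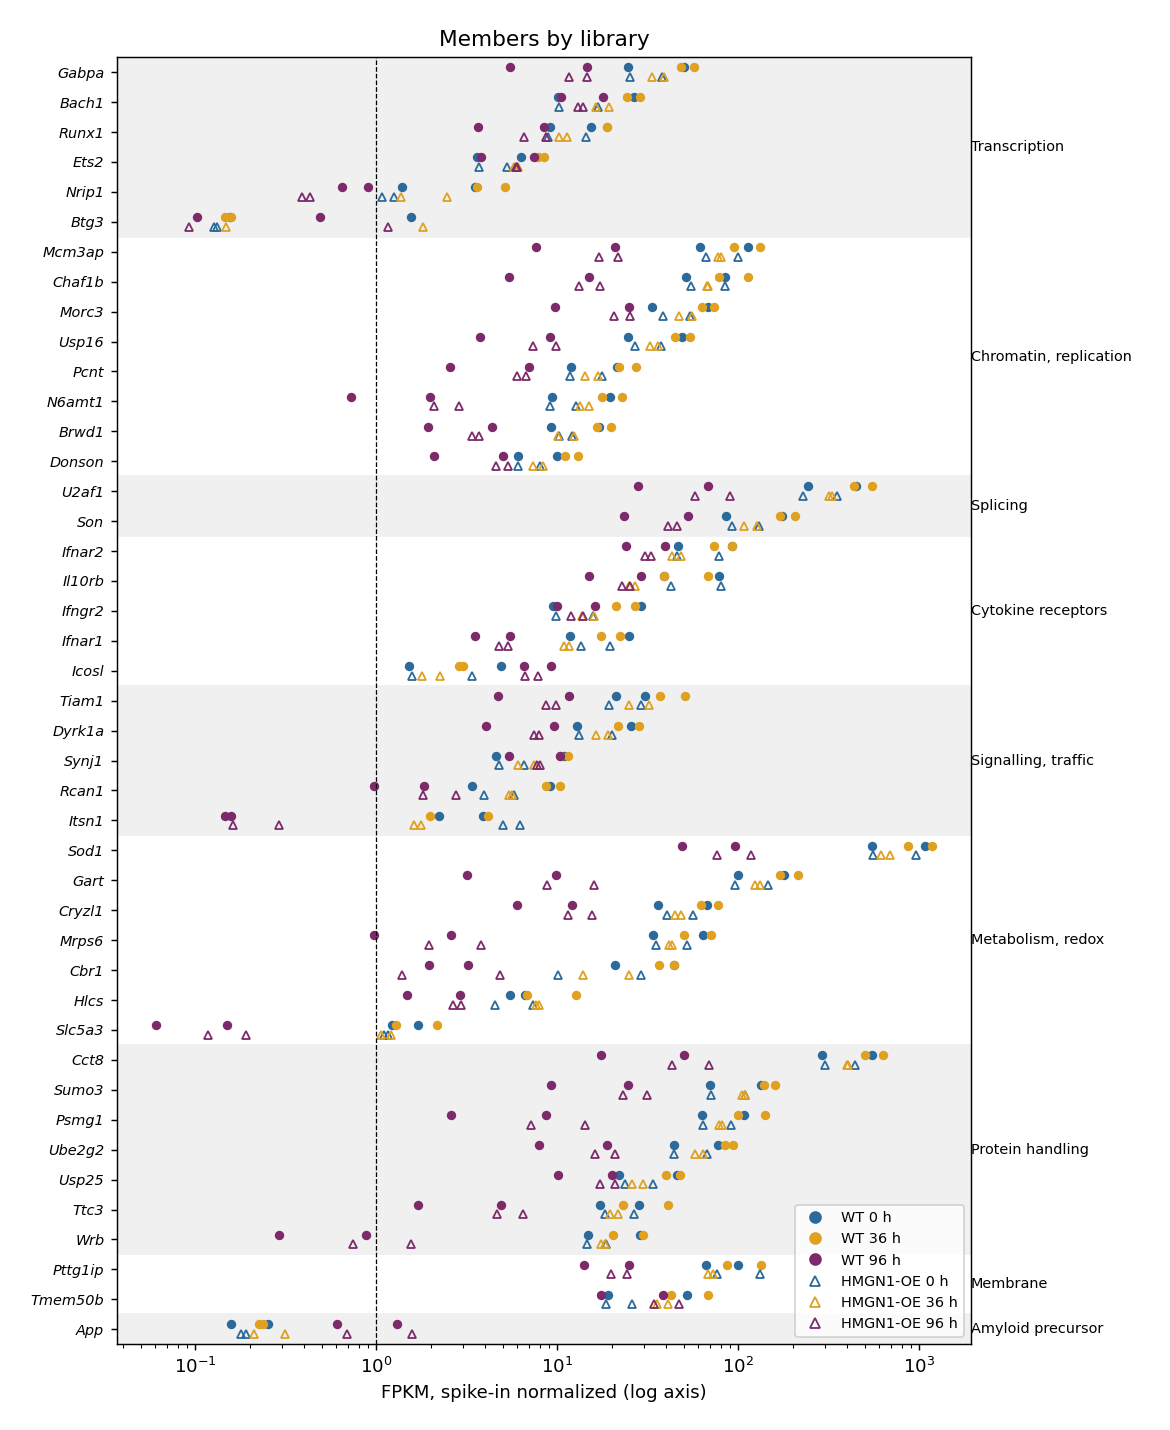
FPKM of the 43 tested members in each of the 12 libraries (log axis), by role; filled circles are wild-type and open triangles HMGN1-OE libraries, coloured by hours after withdrawal of E2, and the dashed line is 1 FPKM. For most members the 96 h libraries lie to the left of the others, *Icosl* and *App* being exceptions, and the genotypes interleave at 0 h.

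The libraries themselves differed in overall level. At 0 h the median over all tested genes of log2(FPKM + 1) was 3.91 and 4.78 for wild-type and 4.48 and 3.96 for HMGN1-OE cells, so the spread within a genotype exceeded the difference between genotypes. At 96 h a wild-type library stood low, with a median of 2.02 against 2.99 in the other. Values are as deposited unless they are called median-centred or relative to the other genes, which means that every library was centred on its own median over the tested genes, a step that removes differences all genes share. The pan-leukocyte marker *Ptprc* and the granule genes *Mpo* and *Elane* of myeloid progenitors were present, and 13 of the 15 markers listed were in the table with none under 1 FPKM in all libraries.

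At 0 h, in undifferentiated progenitors, no member was called between genotypes. None of the 43 members passed an adjusted p of 0.05 (limma across all genes, Benjamini-Hochberg), beside 1.36% of all genes tested, and 2 members, *Itsn1* and *Btg3*, had an unadjusted p under 0.05. The median member differed by -0.13 on the log2(FPKM + 1) scale (HMGN1-OE minus wild-type) and the median of all genes by -0.12. As deposited, 4 members had a higher and 39 a lower estimate in HMGN1-OE cells, whereas after median-centring 21 had a higher and 22 a lower one.

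At 36 h nearly all members had lower values in HMGN1-OE libraries, as had nearly all genes. The median member was at -0.55 and the median gene at -0.54, 41 of 43 members had a lower estimate, and none was called (adjusted p at least 0.449 in limma, with 3 unadjusted p under 0.05, those of *Cbr1*, *Nrip1*, and *Btg3*), beside 1.26% of all genes. For 40 of the 43 members the genotypes did not overlap and HMGN1-OE was the lower, which held for 84.4% of all genes. No member had non-overlapping libraries with HMGN1-OE the higher, beside 1.18% of all genes. Median-centred, 26 members had a higher and 17 a lower estimate, with a median of 0.03.

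At 96 h the median member was at 0.40 and the median gene at 0.36, with 40 estimates higher and 3 lower, and none called (adjusted p at least 0.859 in limma, no unadjusted p under 0.05), beside 0.669% of all genes. After median-centring 21 estimates were higher and 22 lower, with a median of -0.01, and 6 had an unadjusted p under 0.05 but none an adjusted one (lowest 0.218). Without the lower wild-type library at 96 h the median member was at -0.07, and between single libraries of the genotypes it ranged from -0.23 to 0.98. The change of the genotype difference between 0 h and a later time (the interaction of genotype and time) was not called for any member either at 36 h, beside 0.504% of all genes, or at 96 h, beside 0.677%. Unadjusted, 2 interactions at 36 h (*Itsn1* and *Btg3*) and 1 at 96 h had a p under 0.05 in limma. Without the wild-type library of the higher median at 0 h, the interaction of *Btg3* at 36 h was called.

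**Figure D2:**
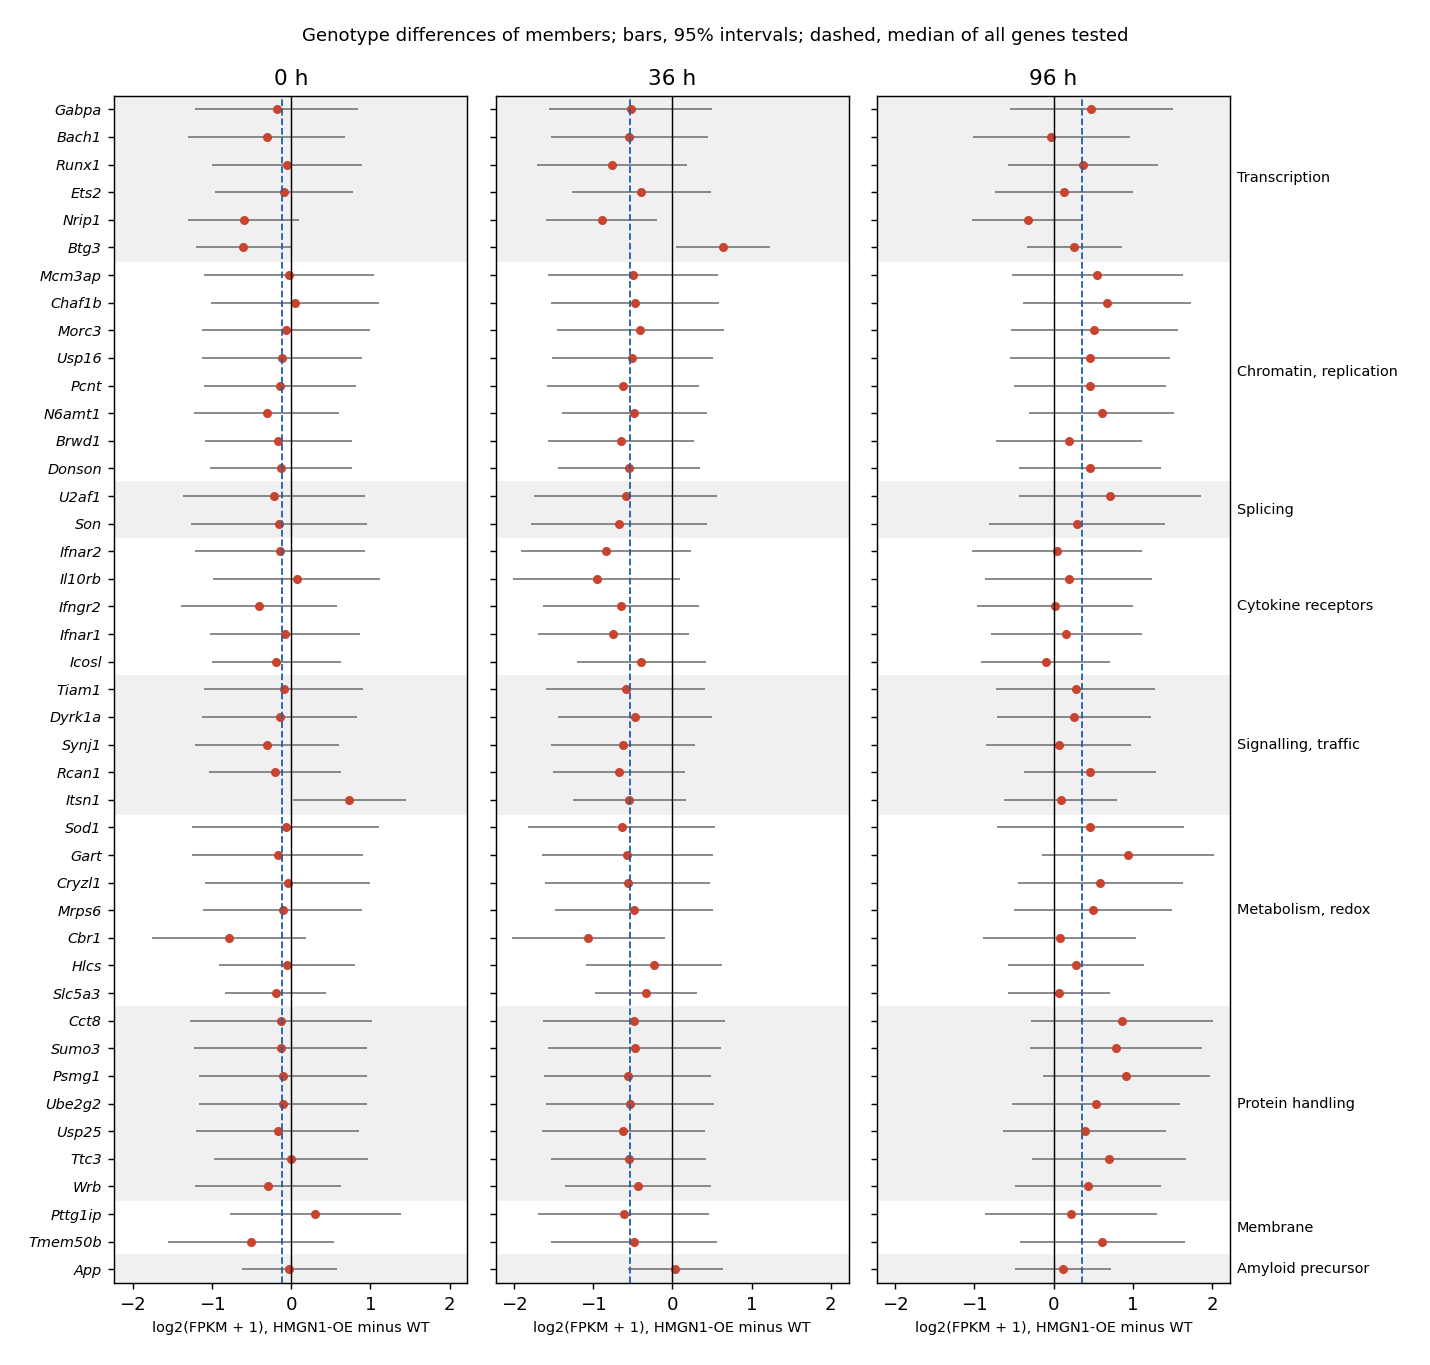
Difference between genotypes in log2(FPKM + 1), HMGN1-OE minus wild-type, for the 43 tested members at 0, 36, and 96 h; points are estimates, bars 95% intervals, and the dashed line the median of all genes tested. Most members lie along the dashed line at -0.12, -0.54, and 0.36, with *Itsn1* at 0 h and *Btg3* at 36 h to its right.

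The size of difference that the intervals left room for depended on the scale. A rise of FPKM by 1.5-fold over the wild-type mean was carried to the log2(FPKM + 1) scale for each member, where it came to a median of 0.57, 0.57, and 0.52 at 0, 36, and 96 h and to 0.118, 0.0921, and 0.0668 for the lowest member. As deposited, the 95% interval of a member reached 0.991 on either side of its estimate at the median, and such a rise was inside the interval for 39 of the 43 members at 0 h, 7 at 36 h, and 43 at 96 h. Median-centred, an interval set by the same normal multiple of the SE reached 0.302 to either side at the median. The rise was inside it for 6, 7, and 15 members and above it for 37, 36, and 28. The centred p-values use a t distribution, by which these intervals would be wider than 0.302 and cover less than 95% as given. The counts of members with the rise above the interval are thus upper limits, and those with it inside are lower limits.

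Of the members, *Itsn1*, which encodes a scaffold protein of endocytosis and Cdc42 signalling, stood furthest above the other genes at 0 h. It was at 2.21 and 3.90 FPKM in the wild-type libraries and at 6.25 and 5.03 FPKM in the HMGN1-OE libraries. Both HMGN1-OE values were above both wild-type values, which held for no other member at 0 h and for 3.26% of all genes. The difference was 0.74 (SE 0.36, adjusted p = 1.0 in limma) as deposited and 0.87 (SE 0.32, adjusted p = 0.756) median-centred, so it was not called on either scale. *Cryzl1*, a quinone oxidoreductase-like gene that starts 569 bases away on the other strand, was at 35.9 and 67.2 FPKM in wild-type and at 55.9 and 40.5 FPKM in HMGN1-OE libraries, a difference of -0.05 (SE 0.53) as deposited and 0.09 (SE 0.07) median-centred.

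Next above the other members at 0 h was *Pttg1ip*, which encodes a membrane protein that binds the securin PTTG1. Its values were 66.2 and 98.9 FPKM in wild-type and 131 and 76.3 FPKM in HMGN1-OE libraries, which overlap. The difference was 0.30 (SE 0.55, adjusted p = 1.0 in limma) as deposited and 0.44 (SE 0.15, unadjusted p = 0.0201 and adjusted p = 0.712) median-centred, not called on either scale. *Il10rb* was at 0.07 (SE 0.54) as deposited and at 0.20 (SE 0.18) median-centred, with the values given below.

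At 36 h *Itsn1* was at 1.98 and 4.12 FPKM in wild-type and at 1.75 and 1.61 FPKM in HMGN1-OE libraries, so both HMGN1-OE values were now the lower ones, as for 84.4% of all genes. The difference at 36 h was -0.54 as deposited, as was that of the median gene, and 0.04 median-centred. At 96 h all 4 libraries were low, at 0.158 and 0.145 FPKM in wild-type and at 0.162 and 0.289 FPKM in HMGN1-OE cells. Its genotype difference changed by -1.28 between 0 and 36 h (SE 0.51, unadjusted p = 0.0131 and adjusted p = 0.873 in limma). *Itsn1* overlaps *Atp5o* on the opposite strand in the annotation, and the strand of the reads is not given in the sources used here, so a share of its reads could belong to that gene.

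*Nrip1*, which encodes a co-repressor of nuclear receptors that include the estrogen receptor, was the only member whose HMGN1-OE values were below the wild-type values without overlap at all 3 times, beside 0.434% of all genes. No member was above without overlap at all 3 times, beside 0.356%. At 0 h it was at 1.39 and 3.49 FPKM in wild-type and at 1.25 and 1.08 FPKM in HMGN1-OE libraries. The 36 h values were 5.17 and 3.58 FPKM against 2.45 and 1.37 FPKM, and the 96 h values 0.900 and 0.645 FPKM against 0.390 and 0.428 FPKM. The differences were -0.60, -0.89, and -0.33 (SE 0.36 each), and -0.47, -0.31, and -0.73 median-centred, with adjusted p of 1.0, 0.449, and 0.859 in limma as deposited. The 2 wild-type libraries at 0 h differed by more than the lower of them differed from the HMGN1-OE libraries.

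*Cbr1*, *Btg3*, and *Nrip1* had the lowest differences at 0 h, followed by *Tmem50b* at -0.51 and *Ifngr2* at -0.40 (-0.38 and -0.27 median-centred). With *Nrip1*, *Btg3* and *Slc5a3* made up the 3 members with non-overlapping libraries and HMGN1-OE the lower at 0 h, beside 4.67% of all genes, with *Slc5a3* at -0.20 as deposited and -0.07 median-centred. *Btg3*, an antiproliferative gene of the BTG family, was near that shared low value in most libraries and reached 1 FPKM in 3 that shared no group, at 1.56 FPKM in 1 wild-type library at 0 h and at 1.80 and 1.15 FPKM in 1 HMGN1-OE library each at 36 and 96 h. Its differences of -0.61 at 0 h and 0.64 at 36 h each rest on a single library (-0.47 and 1.22 median-centred), and *Btg3* overlaps *Cxadr* on the opposite strand.

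*Cbr1*, a carbonyl reductase at the edge of the Ts1Rhr interval described below, had the lowest difference of any member at 0 and 36 h. It was at 20.7 and 44.35 FPKM in wild-type and at 28.9 and 10.1 FPKM in HMGN1-OE libraries at 0 h, and at 36.3 and 44.0 FPKM against 13.8 and 24.96 FPKM at 36 h. The differences were -0.79 (SE 0.49) and -1.06 (SE 0.49, adjusted p = 0.496 in limma), and -0.65 and -0.48 median-centred. At 96 h the HMGN1-OE libraries, at 1.38 and 4.835 FPKM, enclosed the wild-type libraries at 3.21 and 1.96 FPKM.

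Upper and lower ends at 96 h were held by different members. *Gart*, a trifunctional enzyme of purine synthesis, *Psmg1*, a proteasome assembly chaperone, and *Cct8* had the highest differences, at 0.94 (SE 0.55), 0.92 (SE 0.54), and 0.86 (SE 0.59) as deposited and 0.54 (SE 0.17), 0.52 (SE 0.20), and 0.46 (SE 0.17) median-centred, with centred adjusted p of 0.218, 0.241, and 0.2401 in limma. *Gart* was at 9.83 and 3.17 FPKM in wild-type and at 8.79 and 15.99 FPKM in HMGN1-OE libraries, so the genotypes overlapped. *Psmg1*, at 8.61 and 2.60 FPKM against 7.15 and 14.1 FPKM, and *Cct8*, at 49.9 and 17.4 FPKM against 43.2 and 69.1 FPKM, overlapped too. *Bach1*, a heme-regulated repressor, and *Icosl*, the ligand of the co-stimulatory receptor ICOS, were at -0.03 (SE 0.51) and -0.10 (SE 0.42) as deposited and at -0.43 (SE 0.21) and -0.50 (SE 0.25) median-centred, and for *Bach1* the wild-type libraries at 17.97 and 10.46 FPKM enclosed the HMGN1-OE libraries at 13.91 and 13.02 FPKM. Beside *Nrip1*, the only member with non-overlapping libraries in the lower direction at 96 h (2.97% of all genes), 2 members, *N6amt1*, a methyltransferase subunit, and *Itsn1*, had non-overlapping libraries with HMGN1-OE the higher (10.2% of all genes).

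Of the 5 receptor and co-stimulation genes, 4 had differences below the median gene at 36 h and *Icosl* lay above it. *Ifnar1* and *Ifnar2* encode the chains of the type I interferon receptor, *Ifngr2* a chain of the interferon gamma receptor, and *Il10rb* a chain shared by receptors for IL-10 and related cytokines. All 5 members of the group (with *Icosl*) had non-overlapping libraries with HMGN1-OE the lower at 36 h, beside 84.4% of all genes, and none was called. Their median difference was -0.75 against -0.54 for all genes, and median-centred it was -0.17, with *Ifngr2* at -0.07 and *Icosl* at 0.19. *Il10rb* was at 38.7 and 67.8 FPKM in wild-type and at 24.97 and 27.0 FPKM in HMGN1-OE libraries, a difference of -0.95 (SE 0.54) as deposited and -0.37 (SE 0.18) median-centred. At 0 h it had been at 39.0 and 78.5 FPKM against 79.7 and 42.2 FPKM, and at 96 h it was at 29.0 and 14.97 FPKM against 22.8 and 25.15 FPKM, with the genotypes overlapping at both times.

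*Btg3*, *App*, and *Hlcs*, the enzyme that attaches biotin to carboxylases, had the highest differences at 36 h. *Hlcs* was at 6.81 and 12.6 FPKM in wild-type and at 7.90 and 7.61 FPKM in HMGN1-OE libraries, so the genotypes overlapped, with a difference of -0.24 (SE 0.44) as deposited and 0.34 median-centred. *App* was at 0.04 (SE 0.31) as deposited and 0.62 (SE 0.55) median-centred, with every library under 1 FPKM.

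**Figure D3:**
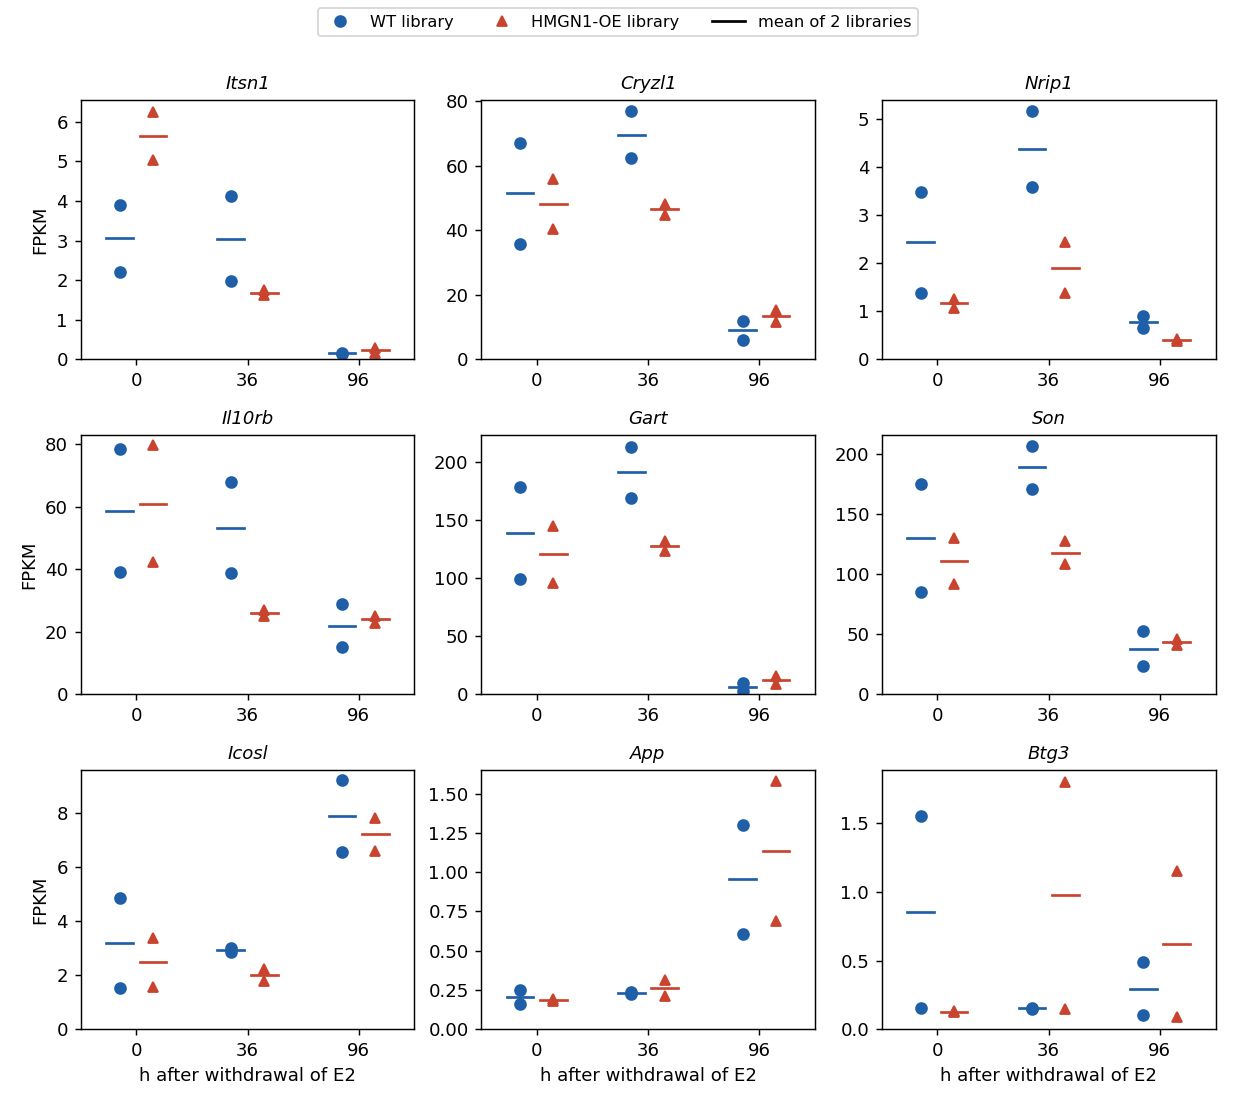
FPKM of 9 members at 0, 36, and 96 h after withdrawal of E2, each point a library and each bar the mean of the 2 libraries of a group; vertical axes start at 0 and differ between panels. *Itsn1* separates the genotypes in opposite directions at 0 and 36 h, *Nrip1* is lower in HMGN1-OE libraries at each time, and the 3 high points of *Btg3* belong to different groups.

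The remaining role groups held no call either. The 8 chromatin, replication, and centrosome genes tested ranged from -0.31 to 0.05 at 0 h, among them *Chaf1b*, a subunit of the chromatin assembly factor, at 0.05, and *Brwd1*, a bromodomain protein, at -0.16. The 7 genes of protein handling ranged from -0.30 for *Wrb*, a receptor for insertion of tail-anchored membrane proteins, to -0.0025 for *Ttc3*, a ubiquitin ligase. *Runx1* was at -0.06 (SE 0.48) at 0 h, with 9.11 and 15.3 FPKM in wild-type and 14.4 and 8.84 FPKM in HMGN1-OE libraries. *Dyrk1a*, a dual-specificity kinase, was at 12.8 and 25.6 FPKM against 20.1 and 13.2 FPKM, a difference of -0.15 (SE 0.50). Median-centred, *Runx1* was at 0.07 (SE 0.11) and *Dyrk1a* at -0.02 (SE 0.10). For both genes the genotypes overlapped.

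Members were next grouped by chromosome position. The Ts1Rhr duplication, a mouse model of partial trisomy, spans *Cbr1* to *Fam3b* and includes *Hmgn1*, and 10 tested members lie in it. Their median differences were -0.10, -0.47, and 0.36 at 0, 36, and 96 h, next to -0.15, -0.57, and 0.33 for the 26 members elsewhere on chromosome 16 and -0.12, -0.52, and 0.50 for the 6 members on chromosome 10. Median-centred, they were 0.03, 0.11, and -0.04 in the interval, -0.02, 0.01, and -0.07 elsewhere on chromosome 16, and 0.01, 0.06, and 0.10 on chromosome 10. *U2af1*, the member on chromosome 17, was at -0.22, -0.59, and 0.71. The neighbours of *Hmgn1* in the list, *Brwd1* and *Wrb*, were at -0.16 (SE 0.47) and -0.30 (SE 0.47) at 0 h. *Hmgn1* itself, measured from the mouse gene, was at 85.7 and 141 FPKM in wild-type and at 201 and 97.6 FPKM in HMGN1-OE libraries at 0 h, a difference of 0.35 (SE 0.55, adjusted p = 1.0 in limma), and its genotypes overlapped at all 3 times. Median-centred, *Hmgn1* was at 0.48, 0.56, and 0.50 at 0, 36, and 96 h (SE 0.26 each, unadjusted p = 0.0987, 0.0585, and 0.0864 in limma), not called at any of them. The human transgene was not analysed here, so this value does not check the labels.

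**Figure D4:**
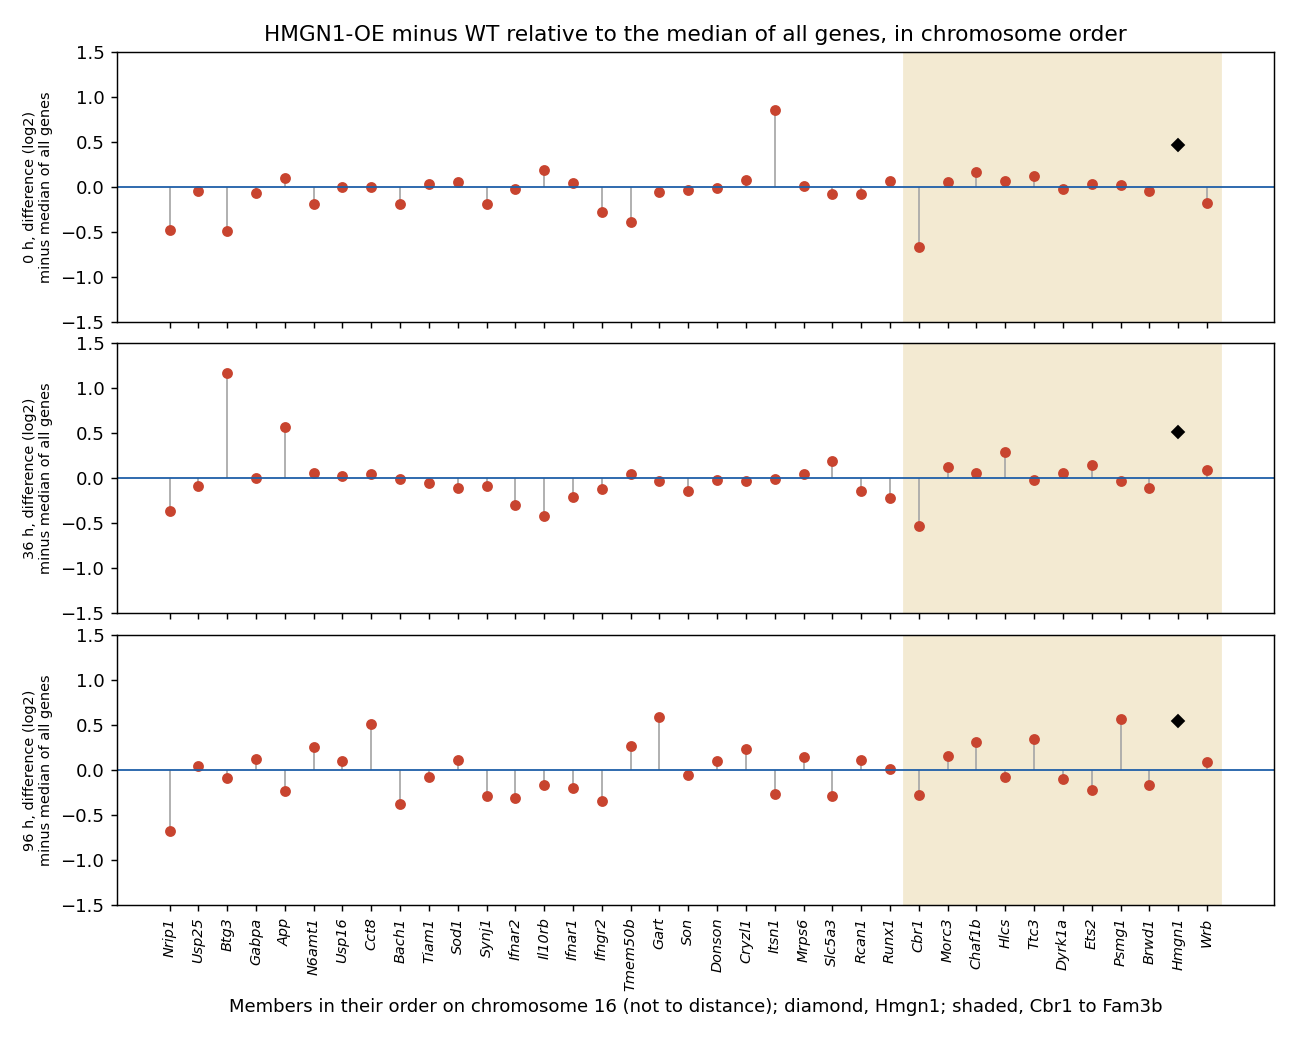
Genotype difference minus the median of all genes (log2) for members in their order along chromosome 16, at 0, 36, and 96 h; the diamond is *Hmgn1* and the shaded band the *Cbr1* to *Fam3b* interval. Most members lie near 0 inside and outside the band, and *Itsn1* at 0 h, *Btg3* at 36 h, *Nrip1* at 96 h, and, inside the band, *Cbr1* at 0 and 36 h are among those further from it.

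Most members fell between 0 and 96 h, as did most genes. By 96 h, 35 of 43 members were called in wild-type cells (2 higher and 33 lower, limma adjusted p under 0.05), beside 81.5% of all genes. In HMGN1-OE cells 28 were called (2 higher and 26 lower), beside 67.5%. The change of the median member was -1.75 for wild-type and -1.26 for HMGN1-OE cells, and that of the median gene was -1.75 and -1.28. The shares of members called thus lie near those of all genes. Without the lower wild-type library at 96 h, 25 members were called in wild-type cells, beside 63.8% of all genes. In HMGN1-OE cells 14 were called without the higher of the 0 h libraries (33.6% of all genes) and 13 without the lower of the 96 h libraries (33.7%).

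At 36 h few calls were made over time. In wild-type cells no member was called (adjusted p at least 0.589 and no unadjusted p under 0.05 in limma), beside 0.617% of all genes, although 40 of 43 members had a higher estimate, with a median of 0.50 and a median gene of 0.47. In HMGN1-OE cells 1 member was called, *Itsn1*, beside 1.8% of all genes. It fell by 1.30 on the log2 scale (SE 0.36, adjusted p = 0.0227 in limma), against -0.02 in wild-type cells. Median-centred, its adjusted p was 0.117, and the call held in 9 of 21 alternative settings and was lost without any 1 of the 6 HMGN1-OE libraries.

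Relative to the median gene, *Tiam1*, an activator of Rac, *Tmem50b*, *Nrip1*, *Ets2*, and *Rcan1* had the highest changes between 0 and 36 h in wild-type cells, at 0.27, 0.27, 0.22, 0.17, and 0.17 median-centred, none of them called. *Tiam1* went from 20.99 and 30.4 FPKM to 36.9 and 50.6 FPKM without overlap, and *Rcan1* from 3.39 and 9.15 FPKM to 10.29 and 8.645 FPKM with overlap. The lowest there were *Btg3* at -1.06, *Il10rb* at -0.59, *Itsn1* at -0.50, *App* at -0.45, and *Icosl* at -0.44, again uncalled.

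In HMGN1-OE cells *Itsn1* and *Il10rb* were lowest between 0 and 36 h, at -1.33 and -1.16 median-centred. For *Il10rb*, whose 0 h libraries were both above its 36 h libraries, the change was -1.13 as deposited (SE 0.54, adjusted p = 0.801 in limma) and its centred adjusted p was 0.0559. *Pttg1ip* at -0.54, *Ifnar1* at -0.52, and *Ifnar2* at -0.40 came next, with centred adjusted p of 0.165, 0.143, and 0.223 in limma. *Pttg1ip* went from 131 and 76.3 FPKM to 67.7 and 72.3 FPKM, *Ifnar1* from 19.5 and 13.5 FPKM to 11.7 and 10.9 FPKM, and *Ifnar2* from 77.9 and 45.5 FPKM to 43.3 and 48.5 FPKM. The highest were *Tmem50b* at 0.74, *Btg3* at 0.64, *Bach1* at 0.38, *Nrip1* at 0.37, and *Hlcs* at 0.34, none of them called.

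**Figure D5:**
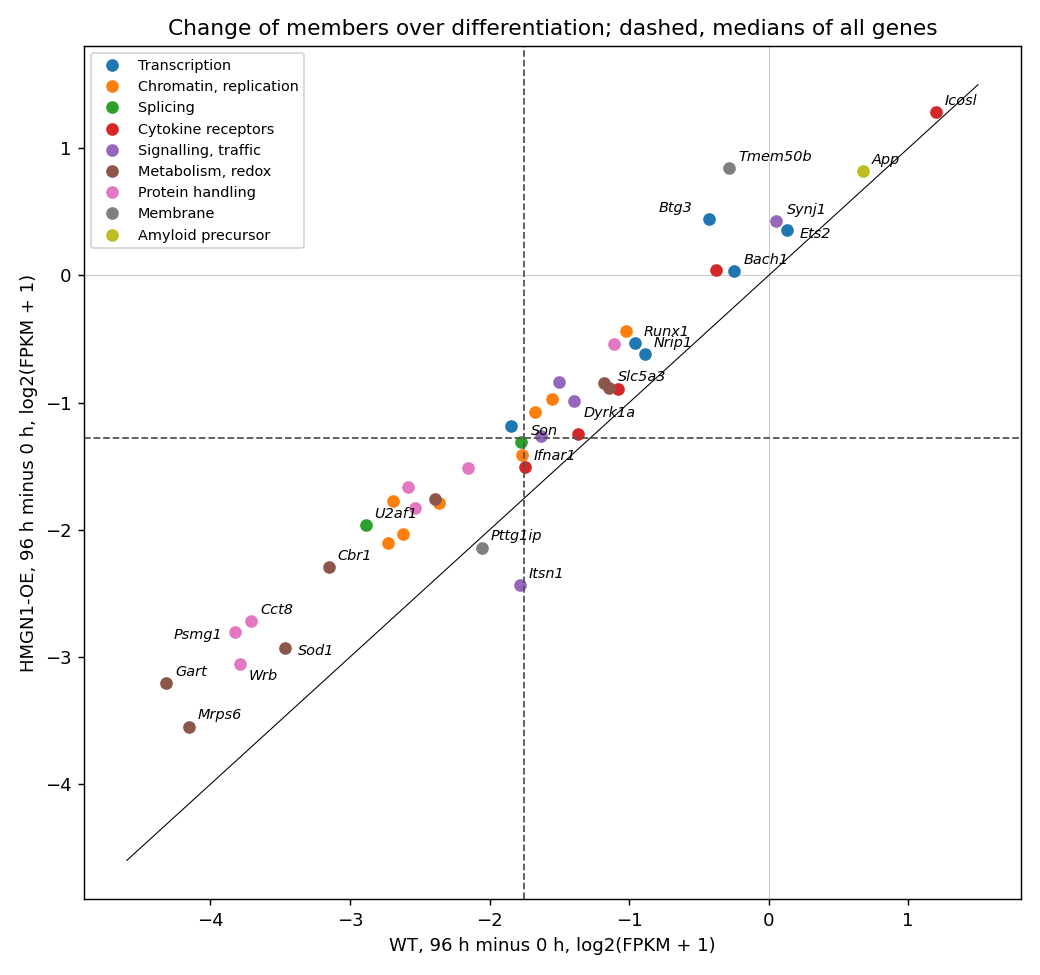
Change of each tested member from 0 to 96 h in log2(FPKM + 1), in wild-type (horizontal) and HMGN1-OE cells (vertical), coloured by role; dashed lines are the medians of all genes and the solid line marks equal change. *Gart* and *Mrps6* fell furthest in both genotypes, *Icosl* and *App* rose, and most members lie above the line of equal change, as the median of all genes does.

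Because nearly all genes fell, the members were also compared with the other genes at 96 h, median-centred. In wild-type cells 16 members were relatively higher (36.5% of all genes) and 16 relatively lower (33.8% of all genes). In HMGN1-OE cells 13 were relatively higher (30.9%) and 16 relatively lower (32.5%). Both genotypes placed 13 members above (28.3% of all genes) and 14 below the other genes (29.3%), and no member was called in opposite directions.

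*Gart*, *Mrps6*, *Psmg1*, *Wrb*, *Cct8*, and *Sod1* had the largest falls of the tested members in both genotypes. *Gart* was at 99.2 and 179 FPKM in wild-type and at 145 and 96.0 FPKM in HMGN1-OE libraries at 0 h, and at 9.83 and 3.17 FPKM and 8.79 and 15.99 FPKM at 96 h. The fall was 4.32 on the log2 scale for wild-type (SE 0.55, adjusted p = 1.77e-13 in limma) and 3.21 for HMGN1-OE cells (adjusted p = 9.86e-08), 21.4-fold and 9.73-fold lower by group means. *Son*, a nuclear-speckle splicing cofactor that starts 852 bases from *Gart*, fell by 1.77 and 1.31, near the median gene, at 0.07 and -0.0009 median-centred. The windows of this pair, printed above, hold CCGGAAGT on the side of *Gart* and not on that of *Son*.

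*Mrps6*, a protein of the mitochondrial ribosome, went from 33.8 and 63.5 FPKM in wild-type libraries to 2.585 and 0.9725 FPKM, a fall of 4.15 (SE 0.51), and fell by 3.55 in HMGN1-OE cells. *Wrb* went from 14.7 and 28.5 FPKM to 0.871 and 0.291 FPKM, falling by 3.79 and by 3.06 in HMGN1-OE cells. *Psmg1* fell by 3.82 and by 2.80, and *Cct8* by 3.71 and 2.72. *Sod1* went from 547 and 1068 FPKM to 96.1 and 48.6 FPKM in wild-type and from 954 and 556 FPKM to 76.2 and 118 FPKM in HMGN1-OE libraries, falling by 3.46 and 2.93. All 5 were below the other genes in both genotypes, at -2.31 and -2.24 for *Mrps6* and -1.62 and -1.62 for *Sod1* median-centred. *Slc5a3*, which shares its locus with *Mrps6* so that reads could be split between them, fell by 1.15 and 0.88.

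Partner proteins of members encoded off human chromosome 21 were read in the same way. Of 27 such genes, 23 were called at 96 h for wild-type and 20 for HMGN1-OE cells, all lower, beside the shares of all genes given above. The 7 other CCT subunits tested (*Tcp1*, *Cct2*, *Cct3*, *Cct4*, *Cct5*, *Cct6a*, and *Cct7*) fell by 3.36 to 4.32 in wild-type cells, a range that contains *Cct8*. *Psmg2* and *Psmg3*, the partners of *Psmg1* in proteasome assembly, fell by 3.79 and 3.73, and *Sod2*, the mitochondrial superoxide dismutase, fell by 2.93. In the genotype comparisons none of the 27 was called at 0, 36, or 96 h on either scale. As deposited none had an unadjusted p under 0.05 in limma, and median-centred 2, 0, and 10 had. The share of all genes with such a p is not given here, so these counts are not read as particular to the partners. At 0 h *Ifngr1*, a partner chain of *Ifngr2*, was among them, at -0.78 median-centred (unadjusted p = 0.00724 and adjusted p = 0.598 in limma).

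*Icosl* and *App* were the 2 members called higher at 96 h than at 0 h as deposited, in both genotypes. *Icosl* was at 1.51 and 4.85 FPKM in wild-type libraries at 0 h and at 9.21 and 6.56 FPKM at 96 h, a rise of 1.197 (SE 0.42, adjusted p = 0.00592 in limma). In HMGN1-OE libraries it went from 3.38 and 1.57 FPKM to 7.82 and 6.60 FPKM, a rise of 1.29 (limma adjusted p = 0.00457). No library at 0 h reached the lowest at 96 h in either genotype. *App*, from 0.158 and 0.252 FPKM to 0.609 and 1.30 FPKM in wild-type and from 0.191 and 0.178 FPKM to 1.58 and 0.691 FPKM in HMGN1-OE libraries, rose by 0.68 (adjusted p = 0.0350 in limma) and by 0.82 (adjusted p = 0.0143). It passed the filter through the 96 h libraries alone, so some rise was built into its being tested. Median-centred, *Icosl* was at 3.04 and 2.60 and *App* at 2.52 and 2.13 in the same order of genotypes.

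*Ets2*, *Synj1* (a phosphatase of synaptic-vesicle and endocytic traffic), *Bach1*, *Ifngr2*, and *Tmem50b* (a membrane protein) were above the other genes at 96 h in both genotypes. *Ets2* was at 3.59 and 6.30 FPKM in wild-type libraries at 0 h and at 7.42 and 3.77 FPKM at 96 h, and at 5.28 and 3.69 FPKM and 5.91 and 5.98 FPKM in HMGN1-OE libraries. Its change was 0.13 and 0.36 as deposited, neither called, and 1.98 and 1.67 median-centred, both called (adjusted p = 1.007e-05 and 3.66e-05 in limma). *Synj1* went from 4.60 and 10.95 FPKM to 10.3 and 5.39 FPKM in wild-type and from 6.58 and 4.75 FPKM to 8.03 and 7.71 FPKM in HMGN1-OE libraries, and *Tmem50b* from 19.1 and 51.8 FPKM to 38.2 and 17.3 FPKM and from 25.7 and 18.6 FPKM to 34.1 and 47.2 FPKM. Median-centred, *Synj1* was at 1.90 and 1.74, *Bach1* at 1.60 and 1.35, *Ifngr2* at 1.47 and 1.35, and *Tmem50b* at 1.56 and 2.16 for wild-type and HMGN1-OE cells. *Btg3* was at 1.42 and 1.75 but not called (adjusted p = 0.122 and 0.0702 in limma). *Runx1*, *Ifnar2*, *Dyrk1a*, *Morc3* (a chromatin ATPase), *Usp25* (a deubiquitinase), and *Donson* (a replication-fork protein) completed the 13 that were relatively higher in both genotypes.

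Genes that act with the receptors were set beside them. Of the 10 tested genes for interferon and IL-10 receptor signalling, 1 was called as deposited between 0 and 96 h for wild-type and 0 for HMGN1-OE cells (limma, no unadjusted p under 0.05 in the latter), beside 81.5% and 67.5% of all genes. All 10 were relatively higher in both genotypes, beside 36.5% and 30.9% of all genes, with median-centred medians of 1.19 and 1.01. *Jak2*, a kinase of cytokine receptors, was at 2.11 and 2.29 on that scale. None of the 10 was called between genotypes at any time on either scale in limma. As deposited none had an unadjusted p under 0.05, and median-centred *Ptpn6*, a phosphatase of cytokine receptor signalling, had at 0 h (-0.38) and at 36 h (-0.39). Of the receptor members, *Ifnar1* was called in neither genotype on the median-centred scale, at 0.10 and -0.20 with adjusted p of 0.539 and 0.232, and *Il10rb* in wild-type cells alone, at 0.48 and 0.07 with adjusted p of 0.0393 and 0.7496 in limma.

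Low members depended on how the log scale was set. With a pseudocount of 0.01 in place of 1 and median-centring, a setting chosen after seeing the data, *Itsn1* was at -2.12 (adjusted p = 0.0012 in limma) and *Slc5a3* at -1.70 (adjusted p = 0.00284) in wild-type cells at 96 h, whereas with a pseudocount of 1 and median-centring they were at 0.06 and 0.70 and not called. Both passed the filter through the 0 and 36 h libraries alone, so some fall was built into their being tested. *Itsn1* passed in HMGN1-OE cells on both scales, at -1.12 and -3.19. *Nrip1* and *Hlcs* were relatively higher in wild-type cells with a pseudocount of 1, at 0.96 and 0.67, and not with 0.01, at 0.55 (adjusted p = 0.229 in limma) and 0.53 (adjusted p = 0.0826).

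Promoter sequence was compared with the change at 96 h for the 40 tested members that have a window in RefSeq, among 27025 genes. The motif CCGGAAGT, on either strand, of the kind bound by ETS factors such as GABP (whose alpha subunit is the member *Gabpa*), was in the windows of 5 of the 40 members (12.5%, *Cct8*, *Gart*, *Ifnar1*, *Mcm3ap*, and *Usp16*) and in 4.31% of all genes. Here and for the other motifs, all genes with a window include genes that were not tested, unlike the members, so these shares come from unlike sets. It was in 4 of 13 members that were relatively lower in both genotypes and in 0 of 13 that were relatively higher, beside 12.2% and 7.64% of all tested genes with those calls. CACGTG was in 10% of the members (8.09% of all genes), GAGGAAGT in 5% (3.69%), TTNNGCAA in 7.5% (12.2%), and the interferon response element (GAAA, 2 arbitrary bases, GAAA) in 0% (3.99%), with N any base and CCGGAAGT and GAGGAAGT sharing the letters GGAAGT. In the same order of lower and higher members, CACGTG was in 2 and 1 (13.9% and 11.7% of all tested genes with those calls), GAGGAAGT in 1 and 0 (3.22% and 5.42%), TTNNGCAA in 2 and 0 (9.46% and 11.6%), and the interferon response element in 0 and 0 (3.69% and 4.44%). These are counts of letters in a window, and no protein was measured there.

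Members were also set beside 49 further tested orthologs of human chromosome 21 genes. None of the 49 was called between genotypes at 0, 36, or 96 h in limma, with 1, 2, and 2 at an unadjusted p under 0.05, and their medians were -0.09, -0.48, and 0.34. Between 0 and 96 h, 41 were called for wild-type and 36 for HMGN1-OE cells, beside 81.5% and 67.5% of all genes. Relative to the other genes 17 were higher and 18 lower in wild-type cells (36.5% and 33.8% of all genes), while HMGN1-OE cells had 12 relatively higher and 17 relatively lower (30.9% and 32.5%).

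Genes that mark other blood cells were summed in each library. Of 18 such markers 8 were under 1 FPKM in all libraries, among them the T-cell gene *Cd3e*. The mast-cell and basophil genes *Cpa3* and *Mcpt8* and the eosinophil genes *Prg2* and *Epx* were not. The 18 summed to 439 to 728 FPKM in wild-type and 567 to 846 FPKM in HMGN1-OE libraries at 0 h, to 888 to 2712 FPKM and 971 to 1047 FPKM at 36 h, and to 1221 to 2481 FPKM and 304 to 929 FPKM at 96 h. The myeloid markers summed to 8206 to 16220 FPKM and 5605 to 8098 FPKM at 0 h, to 18950 to 22150 FPKM and 12520 to 15780 FPKM at 36 h, and to 4070 to 10740 FPKM and 6219 to 8714 FPKM at 96 h. The genotypes did not overlap in the myeloid sum at 0 h, nor at 36 h, when HMGN1-OE was the lower for 84.4% of all genes, nor in the sum of the other blood cells at 96 h.

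The single markers did not all follow their sums. Of the 13 myeloid markers, 8 were lower in HMGN1-OE libraries without overlap at 0 h (4.67% of all genes), among them *Mpo*, *Elane*, *Prtn3*, *Cebpa*, and *Kit*, whereas *Ctsg*, *Cd34*, *Ptprc*, *Ltf*, and *Camp* overlapped. At 36 h 7 of the 13 were lower, beside 84.4% of all genes, and 6 overlapped. At 96 h 1 was lower (2.97% of all genes), 3 (*Elane*, *Prtn3*, and *Ctsg*) were higher (10.2% of all genes), and 9 overlapped. Of the 10 other markers that reached 1 FPKM in a library, 5 were higher in HMGN1-OE libraries without overlap at 0 h (3.26% of all genes), *Mcpt8*, *Prg2*, and *Epx* among them. At that time 1 was lower (4.67% of all genes). At 36 h 3 were lower, beside 84.4% of all genes. At 96 h 4 were lower (2.97% of all genes), *Prg2* and *Epx* included, with *Cpa3* and *Mcpt8* overlapping. The part of these differences in the members' values was not tested.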

How the data were processed

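RNA-seq of 12 libraries (6 groups of 2) was analysed. The deposited values are FPKM per gene, which the authors normalized by loess to the 92 ERCC spike-in RNAs; the submitters' processing notes name HISAT, Cufflinks 2.0.0, and build mm9. The table holds no counts, so depth is unknown and no counting interval was computed. Its spike-in entries were left out, and 0 columns of per-sample values were unused. The study calls the 2 libraries of a group biological duplicates, the labels say no more of their source, and p-values measure the spread between these libraries.

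Values were taken as log2(FPKM + 1), which understates changes of low genes, for genes that reached 1 FPKM in 2 or more libraries. All 6 groups entered a single limma fit (3.58.1, R 4.3.3, eBayes with trend, two-sided), with Benjamini-Hochberg adjustment over all 11516 genes tested and calls at an adjusted p under 0.05. As deposited, the prior degrees of freedom were infinite, so a gene's own spread did not enter its p, whereas it did in the centred fit. The fit was tested on simulated data with independent noise and no shift shared by the genes of a library. Shared shifts such as those between these libraries were thus not covered. Tables and figures were made in Python 3.11.15 (pandas 2.3.3, numpy 2.4.6, scipy 1.17.1, matplotlib 3.10.9). In the relative comparisons each library was centred on its median over the tested genes.

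The rule for the members uses no measured value, but the members and lists were chosen with earlier results of these data known. Given with values in each library or group were members called between genotypes or in an interaction, members on the same side without overlap at all 3 times, the 3 highest and 3 lowest differences at each time, with, by name and change, the 5 highest and 5 lowest changes over time relative to the median gene in each genotype. Alternatives were other pseudocounts, filters, normalizations, and limma settings, only the groups compared, and each library left out. Promoter windows are RefSeq's in GRCm38.p6 and were joined to the values by gene name only, since the values were made on another build. *Il10rb*, *Wrb*, and *Ube2g2* have no window. The strand of the reads is not given in the sources used here, so members that overlap other genes are uncertain, among them *Btg3*, *Itsn1*, *Mrps6*, *Slc5a3*, *Son*, *Donson*, *Usp16*, *Cct8*, *Ttc3*, *Sod1*, *Gabpa*, *Cryzl1*, and *Mcm3ap*.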

Additional observations from a re-analysis of the deposited data

Results flagged for a closer look

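For *Itsn1* the genotype difference was higher in HMGN1-OE cells at 0 h and lower at 36 h, with no overlap between genotypes at either time. At 36 h the same held for 84.4% of all genes, and the difference median-centred was 0.04. The change of the difference was -1.28 on the log2(FPKM + 1) scale (unadjusted p = 0.0131 and adjusted p = 0.873 in limma across all genes), so it was not called.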

How the results depend on the processing

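No member was called between genotypes at 0, 36, or 96 h, in wild-type cells at 36 h, or in the interaction at 96 h, under any of the 22 alternatives. The interaction at 36 h ranged from 0 to 1 called member when libraries were left out, the 1 being *Btg3* without a wild-type library at 0 h. Calls over time varied more. In wild-type cells at 96 h, 35 members were called, 19 when the fit held just the compared groups, and 25 to 37 when libraries were left out. In HMGN1-OE cells at 96 h, 28 were called, and 13 to 31 when libraries were left out. In HMGN1-OE cells at 36 h, the 1 call became 0 with a pseudocount of 0.1 or 0.01, without a filter, with a mean of at least 5 FPKM, with centred libraries, without the trend, with a pseudocount of 0.01 and centring (chosen after seeing the data), and without any 1 of the 6 HMGN1-OE libraries (0 to 1 over all libraries left out). It became 2 when the fit held just the compared groups. A library left alone in its group was assumed to vary like those of the other groups.

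The median over members of the genotype difference ranged from -0.57 to 0.33 at 0 h (-0.13 with all), from -0.70 to -0.41 at 36 h (-0.55 with all), and from -0.07 to 0.86 at 96 h (0.40 with all) when libraries were left out, being negative at 96 h without the lower wild-type library. At 36 h it was 0.028 with centred libraries, 0.0002 after quantile normalization, and 0.033 with a pseudocount of 0.01 and centring. *Hlcs* at 36 h changed sign under the same settings, at 0.34, 0.29, and 0.35. When libraries were left out, *Pttg1ip* ranged from -0.084 to 0.69 and *Il10rb* from -0.43 to 0.56 at 0 h, *Btg3* from -0.0053 to 1.28, *App* from -0.022 to 0.094, and *Hlcs* from -0.64 to 0.16 at 36 h, and *Icosl* from -0.32 to 0.12 and *Bach1* from -0.39 to 0.34 at 96 h. None of these was called, and the cause was not tested. No paired analysis was possible because the columns do not carry the replicate numbers of the titles. With 2 libraries a group and no counts, the precision of a single value is not known beyond the spread between libraries.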
